A study of Mus musculus with 16 samples.

Results

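The genes described here are 8 members of the leptin, IL-22 and IL-6 branch of cytokine signaling in mouse liver: the receptor chains Lepr, Il22ra1, Il10rb, Il6ra and Il6st, the Janus kinase Jak2, the transcription factor Stat3 and its inhibitor Socs3. They were picked by gene symbol from the 24082 Ensembl genes of the liver RNA sequencing table, after Lepr and Il22ra1 had been singled out for their response to iodomethylcholine in pair-fed mice. All 8 were among the 12543 genes that reached a normalized read count of 10 in at least 4 libraries and were tested. The livers came from 16 female C57Bl6/J mice, aged 9 to 11 weeks, with 1 library per mouse and 4 mice in each of 4 groups. Pair control mice received the Pair diet with vehicle, and Pair IMC mice the Pair diet with Iodomethylcholine (IMC), an inhibitor of the microbial enzyme that cleaves choline to trimethylamine. EtOH control mice received the Chronic Ethanol Diet with vehicle, and EtOH IMC mice that diet with IMC. All mice were given Lieber-DeCarli liquid diets. Ethanol was raised to 6% vol/vol by the end of 25 days, maltose dextrin replaced its calories in the pair diet, and IMC was mixed in at 0.06% wt/wt. According to the paper, mice given ethanol with IMC ate less and weighed less than ethanol-fed mice without it. The paper also marks a body weight difference between pair-fed mice with and without IMC. The part of food intake and body weight in the results below was not tested.

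Leptin binds LEPR, and IL-22 binds a pair of chains made of IL22RA1 and the broadly expressed IL10RB. IL-6 binds IL6RA, which then recruits the shared signaling chain gp130, encoded by Il6st. These receptors hand the signal to Janus kinases, which phosphorylate STAT3, and STAT3 in hepatocytes drives the acute-phase genes along with Socs3, whose product blocks the receptors in turn. Phosphorylation is invisible to RNA sequencing, so what follows concerns mRNA levels alone.

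Between 9632659 and 12601199 reads per library fell on genes. Levels are given as normalized read counts, that is reads divided by a size factor that puts all 16 libraries on a common scale, because the deposited columns had been scaled within each diet and left the median gene 0.19 higher (log2) in ethanol-fed mice. The libraries are named by the number in their labels. The numbers 1 to 8 belong to the Pair IMC and EtOH control mice and the numbers 9 to 16 to the rest, so any comparison within a diet or within a treatment cannot be told apart from low against high numbers. The difference of the IMC effects between diets, or of the ethanol effects between treatments, is itself a comparison of low with high numbers. The effects averaged over diets or over treatments are balanced over low and high numbers. All ethanol-fed livers have odd and all pair-fed livers even numbers, so an ethanol effect cannot be told apart from odd against even numbers. Library 12, a Pair control, stood apart from the other 15 in acute-phase and STAT3-related genes, and results that rest on it are given with and without it. The 8 hepatocyte markers, headed by albumin, all had reads, and albumin alone took between 6.74% and 13.04% of reads. Livers were sequenced whole, so fewer cells of a type and less RNA per cell cannot be told apart.

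Promoter sequence was drawn for the genes whose values move together below: Stat3 with Socs3 in library 12, and Lepr with Il22ra1 under IMC. The windows are the 250 bases upstream of each RefSeq transcription start on GRCm38.p6, written 5′ to 3′ along the gene's strand. Capitals mark matches to TTCNNNGAA, the letters of the STAT binding element, which reads the same on the opposite strand. RefSeq held a window for 7 of the 8 genes, with 2 starts for Lepr.
Socs3, chr11:117969367-117969616, minus strand: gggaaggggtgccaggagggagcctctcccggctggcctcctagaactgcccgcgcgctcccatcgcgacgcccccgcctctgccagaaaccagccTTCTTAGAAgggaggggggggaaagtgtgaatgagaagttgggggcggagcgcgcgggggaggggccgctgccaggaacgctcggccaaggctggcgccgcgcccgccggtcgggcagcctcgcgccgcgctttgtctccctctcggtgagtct
Stat3, chr11:100939541-100939790, minus strand: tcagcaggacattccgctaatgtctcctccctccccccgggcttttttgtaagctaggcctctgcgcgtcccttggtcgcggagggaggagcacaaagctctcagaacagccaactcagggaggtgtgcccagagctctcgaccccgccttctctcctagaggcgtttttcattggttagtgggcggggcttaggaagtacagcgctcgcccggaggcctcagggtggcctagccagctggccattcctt
Lepr first start, chr4:101717157-101717406, plus strand: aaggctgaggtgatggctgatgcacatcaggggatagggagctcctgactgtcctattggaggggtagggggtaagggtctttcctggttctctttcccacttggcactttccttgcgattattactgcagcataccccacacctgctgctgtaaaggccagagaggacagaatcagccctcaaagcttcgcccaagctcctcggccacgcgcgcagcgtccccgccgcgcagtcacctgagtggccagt
Lepr second start, chr4:101717656-101717905, plus strand: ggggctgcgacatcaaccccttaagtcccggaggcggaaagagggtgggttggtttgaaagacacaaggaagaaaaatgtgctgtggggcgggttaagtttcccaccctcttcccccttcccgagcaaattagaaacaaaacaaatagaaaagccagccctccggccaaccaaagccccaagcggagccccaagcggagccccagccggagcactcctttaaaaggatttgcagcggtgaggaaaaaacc
Il22ra1, chr4:135727909-135728158, plus strand: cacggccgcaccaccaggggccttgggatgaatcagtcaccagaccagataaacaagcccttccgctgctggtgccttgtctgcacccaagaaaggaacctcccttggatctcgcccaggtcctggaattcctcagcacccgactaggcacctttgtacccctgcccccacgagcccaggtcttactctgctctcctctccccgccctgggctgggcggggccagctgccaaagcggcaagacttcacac
Socs3 carried the match TTCTTAGAA between 154 and 146 bases before its start, and the windows of Stat3, Lepr, Il22ra1, Il6ra, Il6st and Jak2 held none. The same letters occur in 7.02% of the 32851 mouse promoter windows of this length. A match is a description of letters and not a shown binding site, and the lack of one says only that these letters are not in this window.

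Il6st was the most abundant of the 8 transcripts relative to its exon length, with a median of 206 normalized reads per kb of exon over the 16 libraries. Stat3 followed at 145, Il6ra at 124 and Lepr at 118 per kb. Jak2 stood at 63.8, Il22ra1 at 48.2, Il10rb at 35.6 and Socs3 at 25.3 per kb. The ranges over the 16 libraries of each neighbouring pair in this order overlapped. Lepr changed its place with treatment: it averaged 75.4 ± 6.27 per kb (SD, n = 4) in Pair control and 284 ± 56.7 in Pair IMC, where Il6st averaged 206 ± 11.5. Across the 16 libraries, Jak2 varied least, with its highest library at 1.46 times its lowest. Socs3 varied most, at 11.8 times, and Lepr and Il22ra1 spanned 5.49 and 5.58 times.

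**Figure D1:**
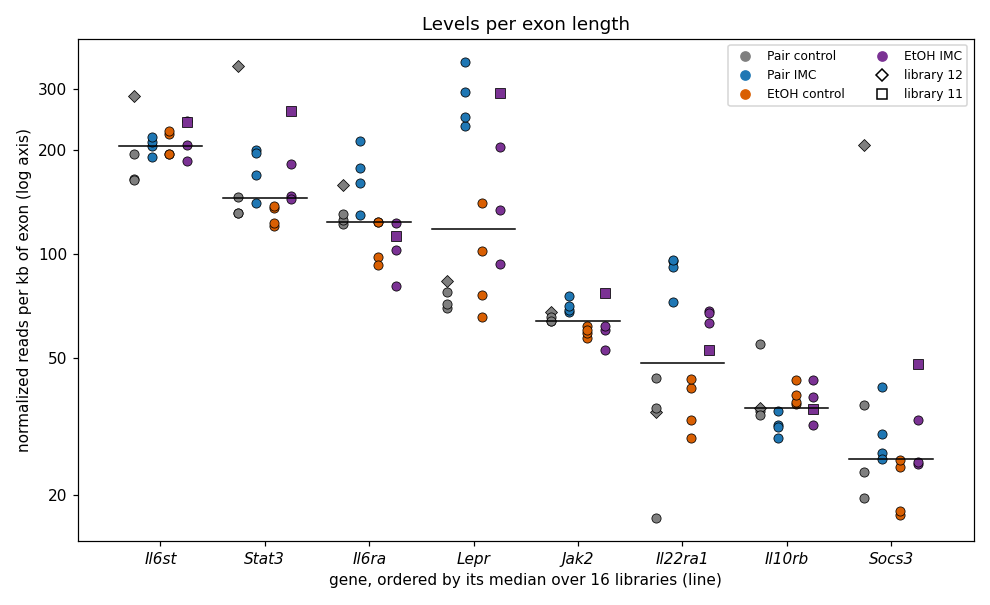
Normalized reads per kb of exon (log axis) of the 8 genes in each of the 16 libraries, coloured by group, with a line at each gene's median. Il6st has the highest median, 206, and Socs3 the lowest, 25.3, while Lepr is lowest in the Pair control and EtOH control livers and highest in Pair IMC.

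Lepr, the leptin receptor, had 489.6, 586, 503 and 548 normalized reads in Pair control libraries 10, 12, 14 and 16. In Pair IMC libraries 2, 4, 6 and 8 it had 2540.1, 1649, 2070.1 and 1755. The lowest Pair IMC mouse thus had well over the highest Pair control mouse, and the means were 532 ± 44.2 and 2004 ± 399.7 (SD, n = 4), with a fitted log2 difference of 1.90, or a fold of 3.72 on that scale. This is the comparison that singled the gene out, so no test is attached to it. In EtOH control libraries 1, 3, 5 and 7 Lepr had 987, 716, 534 and 462 normalized reads. In EtOH IMC libraries 9, 11, 13 and 15 it had 659, 2066, 1437 and 943. These groups overlapped, since library 9 lay below the highest 2 EtOH control libraries and library 15 below the highest. In the order of group means Lepr ran from Pair control through EtOH control (675 ± 234) and EtOH IMC (1276 ± 617) to Pair IMC, and each neighbouring pair of groups overlapped.

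IMC raised Lepr 1.80-fold in ethanol-fed mice (log2 0.85, SE 0.27, adjusted p = 0.0337 by limma over 12543 genes). The difference itself uses only samples that played no part in the choice of Lepr. Its SE and adjusted p also draw on the spread within the pair-fed groups, which did play a part. The call was not a firm one. It was lost when EtOH control library 3, 5 or 7 or EtOH IMC library 11 or 13 was left out, with adjusted p between 0.0509 and 0.115 and a smallest log2 difference of 0.57 without library 11. It was also lost when only the 8 ethanol-fed libraries were fitted (adjusted p = 0.0711). As a description, ethanol moved Lepr by 0.29 (log2) in control mice and by -0.76 in IMC-treated mice, and the IMC effect was smaller by 1.05 in the ethanol-fed mice. The Lepr gene (ENSMUSG00000057722, GRCm38 chromosome 4, 101717404 to 101815352, plus strand) has 7 annotated transcripts, 4 of them coding. Counts per gene do not separate the long receptor that engages STAT3 from the short forms.

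Il22ra1, the ligand-specific chain of the IL-22 receptor, followed a similar course at a lower level. It had 112, 89.5, 92.0 and 44.0 normalized reads in Pair control libraries 10, 12, 14 and 16, and 244, 235, 186 and 246 in Pair IMC libraries 2, 4, 6 and 8. The groups did not overlap, with means of 84.4 ± 28.7 and 228 ± 28.0 (SD, n = 4). The fitted log2 difference was 1.49, a fold of 2.81 on that scale, given without a test because the gene was singled out on it. In EtOH control libraries 1, 3, 5 and 7 Il22ra1 had 105, 84.9, 112 and 75.0 normalized reads, and in EtOH IMC libraries 9, 11, 13 and 15 it had 175, 135, 162 and 173. Every EtOH IMC mouse exceeded every EtOH control mouse. IMC raised Il22ra1 1.72-fold in the ethanol-fed mice (log2 0.78, SE 0.22, adjusted p = 0.0160), and the call was lost in 1 of 25 alternatives, without EtOH control library 7 (log2 0.68, adjusted p = 0.0541). In the order of means, Pair control and EtOH control (94.1 ± 16.999) overlapped, while EtOH control, EtOH IMC (161 ± 18.1) and Pair IMC were each clear of the next. The EtOH IMC livers lay below all Pair IMC livers, a log2 difference of -0.49 that is again a description. The gene (ENSMUSG00000037157) lies on chromosome 4, 135728172 to 135752140, plus strand.

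Il10rb, the chain that IL-22 shares with IL-10, passed the test in none of the comparisons on the common scale. It had between 129.8 and 209 normalized reads in Pair control, 111 and 133 in Pair IMC, 139.7 and 164 in EtOH control, and 121 and 164 in EtOH IMC. The highest value, 209, came from Pair control library 16, which also had the lowest Il22ra1 of all libraries at 44.0. In IMC-treated against control mice on ethanol the log2 difference was -0.07 with a 95% confidence interval from -0.37 to 0.22 (adjusted p = 0.756). Ethanol moved Il10rb by -0.01 in control mice (adjusted p = 0.979) and by 0.21 in IMC-treated mice (adjusted p = 0.319). On the deposited scale, with its higher ethanol-fed values, the last difference was 0.41 and passed (adjusted p = 0.0373). Its exons share stretches with Gm21970 on the same strand, so reads could be split between them. It is ENSMUSG00000022969 on chromosome 16, 91406164 to 91425834, plus strand.

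**Figure D2:**
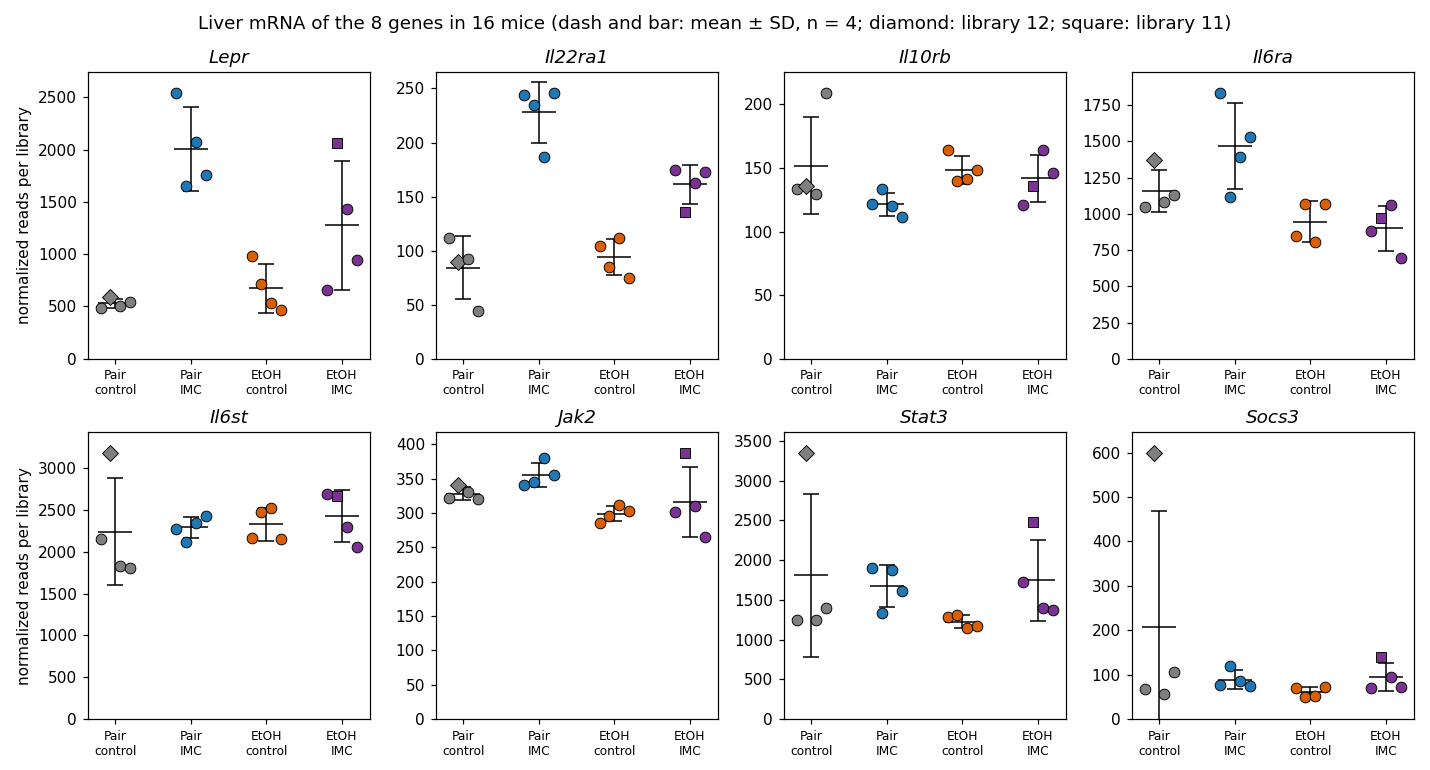
Normalized reads of the 8 genes in each library (points) with the mean and SD of each group of 4 (dash and bar, cut at 0 for Socs3), and library 12 as a diamond and library 11 as a square. Lepr and Il22ra1 stand highest in Pair IMC, with means of 2004 and 228, and library 12 reaches 3345 for Stat3 and 598 for Socs3.

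Il6ra, the ligand-binding chain of the IL-6 receptor, was the member that ethanol lowered. In Pair IMC libraries 2, 4, 6 and 8 it had 1834, 1117, 1389.8 and 1529.9 normalized reads, against 883, 973, 1058 and 696 in EtOH IMC libraries 9, 11, 13 and 15. The ranges did not overlap. Ethanol lowered Il6ra to 0.618 of its level in IMC-treated mice (log2 -0.69, SE 0.15, adjusted p = 0.00524), and this call held in 25 of 25 alternatives. In control mice the values were 1051, 1369.6, 1081 and 1129 in Pair control libraries 10, 12, 14 and 16, and 848, 1071, 804 and 1068 in EtOH control libraries 1, 3, 5 and 7. Libraries 3 and 7 overlapped the Pair control range there, and the log2 difference of -0.29 did not pass (95% confidence interval -0.61 to 0.02, adjusted p = 0.218). Averaged over treatments, which balances low and high but not odd and even numbers, ethanol lowered Il6ra by a log2 difference of -0.49 (SE 0.11, adjusted p = 0.00276), a call kept in 24 of 24 alternatives. The ethanol effects of control and IMC-treated mice differed by -0.40, which did not pass (adjusted p = 0.380). On ethanol, IMC left Il6ra at a log2 difference of -0.07 (95% confidence interval -0.39 to 0.24, adjusted p = 0.760), and in pair-fed mice the difference was 0.33. The summed hepatocyte markers were also lower in EtOH IMC, between 965262 and 1240602 normalized reads per library, than in Pair IMC, between 1636949 and 1738652. Such a sum is weighted to its most abundant markers, albumin among them. Of the 8 hepatocyte markers, 0 were called in this comparison by limma, beside 16.4% of all genes, with a median log2 difference of -0.30. The part of these markers in the Il6ra result was not tested. The gene (ENSMUSG00000027947) spans chromosome 3, 89864059 to 89913196, minus strand, and its 5′ end overlaps Gm42809 on the opposite strand.

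Il6st, which encodes gp130, had between 1809.9 and 3177 normalized reads in Pair control and between 2059 and 2691 in the other 3 groups. The highest value of all 16 was library 12. The means of the 4 groups lay between 2242 ± 643 in Pair control and 2428 ± 307 in EtOH IMC (SD, n = 4), and all neighbours in their order overlapped. IMC in ethanol-fed mice moved Il6st by 0.06 (log2, 95% confidence interval -0.24 to 0.35, adjusted p = 0.814). Ethanol moved it by 0.09 in control mice (adjusted p = 0.715) and by 0.08 in IMC-treated mice (adjusted p = 0.756). Without library 12 the ethanol difference in control mice was 0.27 (adjusted p = 0.109). With values on the deposited scale, ethanol averaged over treatments raised Il6st by 0.27 (adjusted p = 0.0357), against 0.08 on the common scale (adjusted p = 0.572). Il6st is ENSMUSG00000021756 on chromosome 13, 112464070 to 112510086, plus strand.

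Jak2, a kinase that associates with LEPR and gp130, had 322, 340.4, 330.3 and 320.4 normalized reads in Pair control libraries 10, 12, 14 and 16, and 286, 296, 311 and 303 in EtOH control libraries 1, 3, 5 and 7, so that the 2 groups did not overlap. In Pair IMC it had between 340.4 and 380.0, and in EtOH IMC between 265 and 387, with library 11 at the top. Ethanol moved Jak2 by -0.13 (log2) in control mice (adjusted p = 0.374), by -0.18 in IMC-treated mice (adjusted p = 0.210) and by -0.16 on average (adjusted p = 0.0932). Leaving out library 11 brought the last 2 past the threshold, at -0.28 (adjusted p = 0.0266) and -0.21 (adjusted p = 0.0113). On the deposited scale the signs turned, with log2 differences of 0.05, 0.01 and 0.03. IMC in ethanol-fed mice moved Jak2 by 0.07 (adjusted p = 0.649). Jak2 is ENSMUSG00000024789 on chromosome 19, 29251828 to 29313080, plus strand.

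Stat3 had its highest value of all 16 livers in a control mouse. It had 1252, 3345, 1250.5 and 1395 normalized reads in Pair control libraries 10, 12, 14 and 16, so that library 12 held 2.57 times the mean of the other 3. Its values ran from 1334 to 1903 in Pair IMC. In EtOH control libraries 1, 3, 5 and 7 Stat3 had 1290.4, 1307, 1145 and 1168 normalized reads. In EtOH IMC libraries 9, 11, 13 and 15 it had 1731, 2478, 1399 and 1374. Every EtOH IMC mouse exceeded every EtOH control mouse, and library 11 was the highest of its group. The log2 difference of 0.47 (a fold of 1.38) did not pass with all libraries (SE 0.25, adjusted p = 0.193). Without library 12 the same difference had an SE of 0.15 and passed (adjusted p = 0.0381), because the spread is estimated over all groups together. Averaged over diets, the IMC difference was 0.24 (adjusted p = 0.321) with library 12 and 0.41 (adjusted p = 0.0125) without it. Ethanol moved Stat3 in control mice by -0.42 (adjusted p = 0.279), or by -0.08 without library 12 (adjusted p = 0.788). In IMC-treated mice the difference was 0.03 (95% confidence interval -0.50 to 0.55). Stat3 (ENSMUSG00000004040, chromosome 11, 100885098 to 100939540, minus strand) ends within Stat5a exons of the opposite strand, and Stat5a had 3292 reads over the 16 libraries.

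Socs3, the feedback inhibitor induced by STAT3, had 67.2, 598, 56.6 and 105 normalized reads in Pair control libraries 10, 12, 14 and 16, with library 12 at 7.83 times the mean of the other 3. No other library of any group exceeded 139. It had between 73.5 and 119 in Pair IMC. In EtOH control libraries 1, 3, 5 and 7 Socs3 had 69.4, 50.5, 52.0 and 73.0 normalized reads, and in EtOH IMC libraries 9, 11, 13 and 15 it had 71.0, 139, 95.1 and 72.2. Those ranges overlapped slightly. The IMC difference in ethanol-fed mice was 0.58 (log2, SE 0.49, adjusted p = 0.428), and without library 12 it was 0.58 (SE 0.23, adjusted p = 0.0872). IMC in pair-fed mice gave -0.51 with library 12 and 0.24 without it, so the sign turned on a single mouse. Ethanol in control mice gave -1.03 (adjusted p = 0.181) with library 12 and -0.28 (adjusted p = 0.507) without it. The count-based tests called this last difference (edgeR -1.77, adjusted p = 0.0470, and DESeq2 -1.76, adjusted p = 0.0354, both with library 12). In IMC-treated mice ethanol moved Socs3 by 0.06 (adjusted p = 0.952). The gene (ENSMUSG00000053113) covers chromosome 11, 117966079 to 117970047, minus strand, and its promoter window is the member window with the STAT letters shown above. That window, 117969367 to 117969616, is upstream of the RefSeq start used but lies inside this GENCODE span.

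Counted over the 8 genes, 2 were called for IMC in pair-fed mice, Lepr and Il22ra1, beside 9.47% of all genes tested, and nothing is read from this count because the contrast chose them. The same 2 had groups that did not overlap there, beside 14.3% of all genes. For IMC in ethanol-fed mice 2 of 8 were called with all libraries and 3 of 8 without library 12, beside 21.5% and 22% of all genes. Groups did not overlap for 2 of the 8 in that comparison, Il22ra1 and Stat3, beside 25.3% of all genes. The median log2 IMC difference of the 8 in ethanol-fed mice was 0.27, against 0.00 over all genes tested. That median includes Lepr and Il22ra1, which were singled out for their rise under IMC in pair-fed mice, so nothing is read from it. For IMC averaged over diets 2 were called, or 3 without library 12, beside 28.1% and 26.8% of genes. The 2 are Lepr and Il22ra1, whose average contains the comparison that chose them, so nothing is read from them here. None of the 8 passed when the IMC effect on ethanol was set against that on the pair diet, where 1.11% of genes did by limma. This contrast cannot be told apart from low against high library numbers. By edgeR and DESeq2 the count was also 0. Apart from Lepr and Il22ra1 none had an unadjusted p under 0.05 by limma with all libraries. Without library 12 Il6ra did (unadjusted p = 0.0382 by limma, adjusted p = 0.331). Lepr (-1.05) and Il22ra1 (-0.71) are described and not tested in this contrast, since it contains the comparison that chose them. The differences of Stat3 (0.45, adjusted p = 0.578) and Socs3 (1.09, adjusted p = 0.478) became 0.11 and 0.34 without library 12. Ethanol in control mice called none of the 8 by limma, also at an unadjusted p under 0.05 with all libraries. Without library 12 Il6st had an unadjusted p of 0.0189 by limma (adjusted p = 0.109). By edgeR or DESeq2 this comparison called 1, Socs3. Of all genes, 11.9% were called there by limma, 12.4% by edgeR and 14.4% by DESeq2. Jak2 was the only member whose groups did not overlap there, beside 19% of genes. Ethanol in IMC-treated mice called Il6ra alone, beside 16.4% of genes, while groups did not overlap for Il22ra1 and Il6ra, beside 19.2%. Ethanol averaged over treatments called Il6ra, beside 26.1% of genes.

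**Figure D3:**
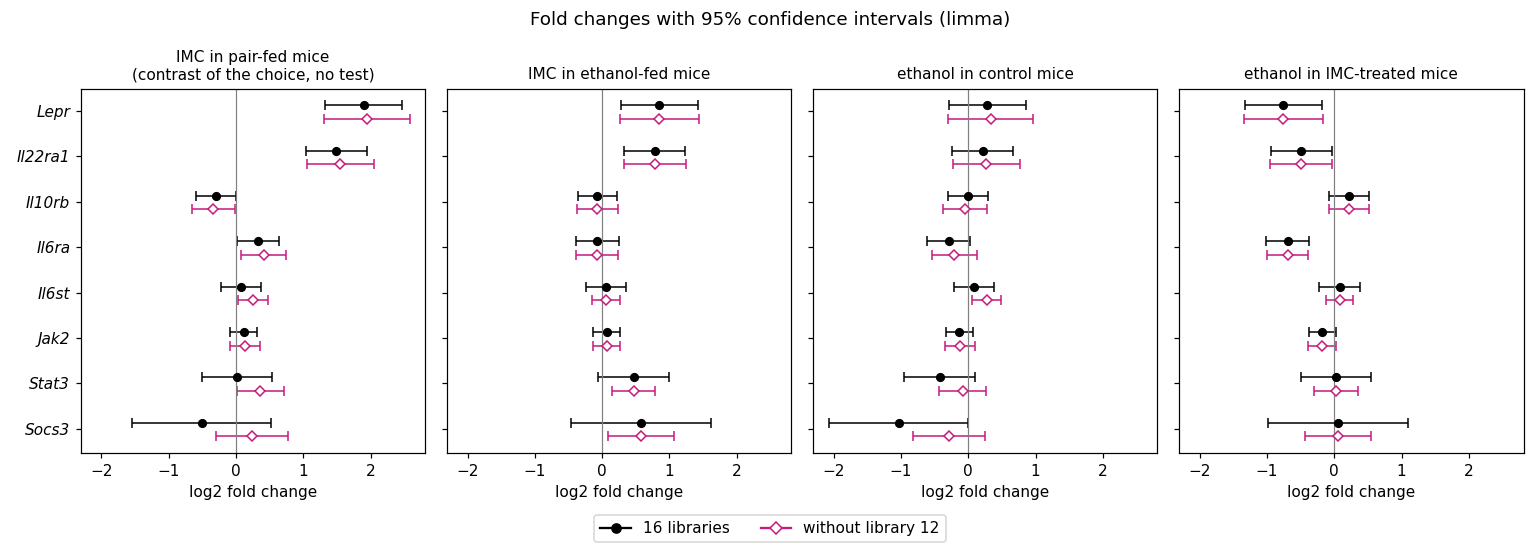
Log2 fold changes of the 8 genes with 95% confidence intervals from limma in 4 comparisons, with all 16 libraries (filled circles) and without library 12 (open diamonds). In ethanol-fed mice the IMC intervals of Lepr and Il22ra1 lie above 0, at 0.85 and 0.78, and the interval of Stat3 does so only without library 12. For Socs3 all 4 intervals narrow once library 12 is left out, and the 2 comparisons that use Pair control also shift.

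Most of the ligands listed for these and related receptors were close to absent from liver RNA. Of 14 ligands listed, Il22, Il20 and Il24 had no read in any library, and 3 reads, the most that a count of 0 allows, are 2.38e-05% to 3.11e-05% of the reads of these libraries. Another 8 never exceeded 5 reads in a library, among them Lep with 6 reads and Il6 with 12 reads over all 16. Cntf had reads in all 16 libraries, 49 in total and at most 7 in any library. Clcf1 and Ctf1, which signal through gp130, were the 2 ligands that could be tested. Clcf1 had 23.9 ± 5.88 normalized reads in EtOH control and 38.3 ± 6.10 in EtOH IMC (SD, n = 4), a rise of 0.68 (log2, SE 0.21, adjusted p = 0.0307). Neither ligand was called for ethanol. The median IMC difference of the pair in ethanol-fed mice was 0.14, against 0.00 for all genes.

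Of 13 related receptors and receptor partners, 9 were tested. In ethanol-fed mice 1 fell under IMC and none rose, which is 11.1% of them beside 21.5% of all genes, and the median log2 difference was -0.03. The gene that fell was Lifr, which pairs with gp130 to bind LIF, at 2665 ± 270.3 normalized reads in EtOH control and 1974 ± 111 in EtOH IMC (log2 -0.43, SE 0.10, adjusted p = 0.00475). Lifr also fell over both diets (log2 -0.32, adjusted p = 0.00206). The IL-27 receptor chain Il27ra fell with ethanol over both treatments (log2 -0.54, adjusted p = 0.0432), but not past the threshold without library 12 (adjusted p = 0.0659). Among 8 tested of 9 other Janus kinases and STATs, 2 fell and none rose under IMC in ethanol-fed mice, which is 25% of them beside the same 21.5%, with a median of -0.11. Stat5a, a STAT downstream of growth hormone, fell from 280.7 ± 41.9 to 171 ± 51.8 (log2 -0.76, SE 0.19, adjusted p = 0.0104), with the reserve that its exons overlap the end of Stat3.

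Among the 15 other negative regulators, 14 were tested, and in ethanol-fed mice 2 rose and none fell under IMC, which is 14.3% of them beside 21.5% of all genes. Socs2, a feedback inhibitor of growth hormone signaling, had 84.0 ± 16.6 normalized reads in EtOH control and 226 ± 68.1 in EtOH IMC (log2 1.38, SE 0.27, adjusted p = 0.00183). It was lower with ethanol in control mice, where Pair control had 360.0 ± 100.0 (log2 -2.07, SE 0.27, adjusted p = 0.000276). Ptpn11, the phosphatase SHP2 recruited by gp130 and LEPR, rose with IMC by 0.34 (log2) in ethanol-fed mice (adjusted p = 0.0143) and by 0.39 over both diets (adjusted p = 0.000322). Socs7 rose (0.27, adjusted p = 0.0283) and Pias3, which binds STAT3, fell (-0.30, adjusted p = 0.0409) for IMC over both diets. With ethanol, Socs5 rose by 0.58 in control mice (adjusted p = 0.0138) and Pias2 fell by 0.32 on the log2 scale (adjusted p = 0.0122). The medians of this list stayed within 0.10 of 0 in each of these 4 comparisons. Socs3 itself passed limma in none of them.

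STAT3 target genes of liver were read as a list of 32 known targets and acute-phase genes, 31 of which could be tested. In library 12, 24 of the 31 had their highest value of all 16 libraries, or 77.4%, against 6.93% of all genes tested. Their median log2 value in library 12 was 1.002 above the other 3 Pair control libraries, against 0.00 for all genes. Saa1 had 6933 normalized reads there and 245 to 601 in the other Pair control mice, with at most 654 in any other library. Lcn2, lipocalin 2, had 1566 against 94.4 to 146, and Junb 953 against 190.4 to 268. Of the members, Il6st, Stat3 and Socs3 were highest of all 16 in library 12, with log2 differences of 0.72, 1.37 and 3.002 from the other Pair controls, while those of Lepr (0.19), Il22ra1 (0.22) and Jak2 (0.07) were small. Library 11, which led EtOH IMC for Lepr, Stat3, Socs3 and Jak2, was highest of all 16 libraries for none of the 31 targets. These 2 yardsticks differ, since library 12 already held 24 of the 31 places. Within EtOH IMC, library 11 led for some targets, such as Cebpb, and not for others, such as Saa1. Of the cell type markers, 5 of 6 tested bile duct markers were also highest in library 12, with a summed level of 1382 against 708 to 1041 in the 12 libraries of the other groups. Its summed Kupffer cell and macrophage markers (4038) and neutrophil markers (63.0) lay inside the range of the other Pair controls. The part of these markers in the library 12 values was not tested.

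**Figure D4:**
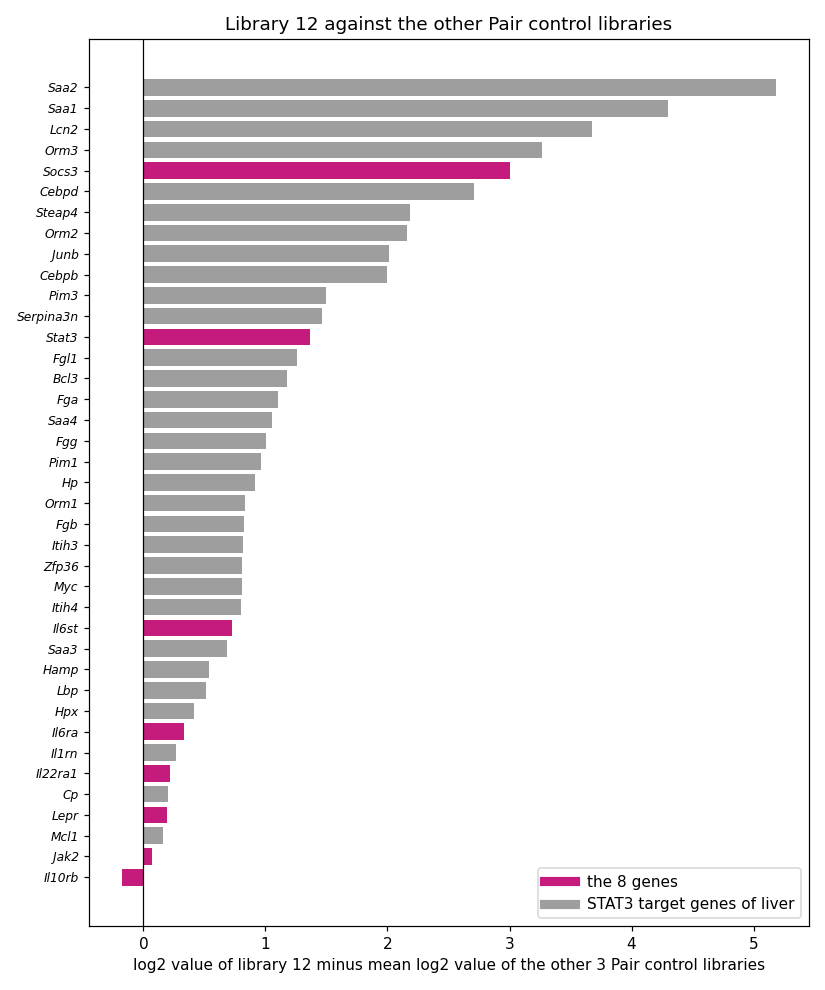
Log2 value of library 12 minus the mean log2 value of the other 3 Pair control libraries, for the 8 genes and the 31 STAT3 target genes tested, in order of size. Socs3 (3.002), Stat3 (1.37) and Il6st (0.72) lie among the targets, and Il10rb alone falls below 0.

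Across groups the targets did not move as a block. Under IMC in ethanol-fed mice 3 of 31 rose and 5 fell, with a list median of 0.08, or 6 and 7 without library 12. That is 25.8% of the list beside 21.5% of all genes, or 41.9% beside 22% without library 12. Hamp, which encodes the iron hormone hepcidin, rose by 2.42 (log2, SE 0.46, adjusted p = 0.00168), and Myc by 1.43 (SE 0.27, adjusted p = 0.00154). The serum amyloid genes fell, Saa1 by a log2 difference of -3.75 (SE 0.74, adjusted p = 0.00201) and Saa2 by -4.07 (SE 0.88, adjusted p = 0.00382), although these near-identical copies may exchange reads. Saa1 had 19.0 to 36.1 normalized reads in EtOH IMC and 212 to 654 in EtOH control. The group with the higher Stat3 values thus had lower Saa1 values but higher Hamp and Myc values. The Stat3 difference itself did not pass with all libraries (adjusted p = 0.193 by limma). Over both diets 2 targets rose and 7 fell, or 9 rose and 6 fell without library 12. These are 29% of the list beside 28.1% of all genes, or 48.4% beside 26.8% without library 12. With all libraries Hp, haptoglobin, rose by a log2 difference of 0.49 (adjusted p = 0.00903). With ethanol in control mice none rose and 4 fell, or 1 and 3 without library 12, which is 12.9% of the list each time beside 11.9% and 9.83% of all genes. The median moved from -0.41 to 0.02 when library 12 was left out, and Hamp (-2.47, adjusted p = 0.00316) and Junb (-1.93, adjusted p = 0.00938) fell either way. Averaged over treatments, ethanol lowered 8 targets and raised none, with Saa1 at -2.34 (adjusted p = 0.00343), or lowered 8 and raised 3 without library 12. These are 25.8% of the list beside 26.1% of all genes, or 35.5% beside 25.3% without library 12. The shares of the list were not tested against those of all genes. RefSeq held promoter windows for 26 of the 32 genes, and 7 of the 26 had the TTCNNNGAA letters, Fga, Fgb, Hamp, Itih4, Reg3b, Steap4 and Zfp36. These 26 genes had 30 windows, while the 7.02% given above is a share of windows and not of genes. The list was made of known targets and acute-phase genes, and the count was not tested.

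Socs3 and Stat3 rose together in library 12 and, less so, in library 11. With each group's mean removed, their log2 values had a Pearson r of 0.815 over the 16 libraries and of 0.304 over 15 without library 12. Stat3 and Il6st had 0.834 and 0.508 in the same way. For Lepr and Il22ra1 the r over all 16 log2 values was 0.758, which includes the comparison that singled both genes out. With the group means removed it was -0.143, so mice of a group with more Lepr did not have more Il22ra1. The points of these correlations share libraries and size factors, and they are given as descriptions.

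**Figure D5:**
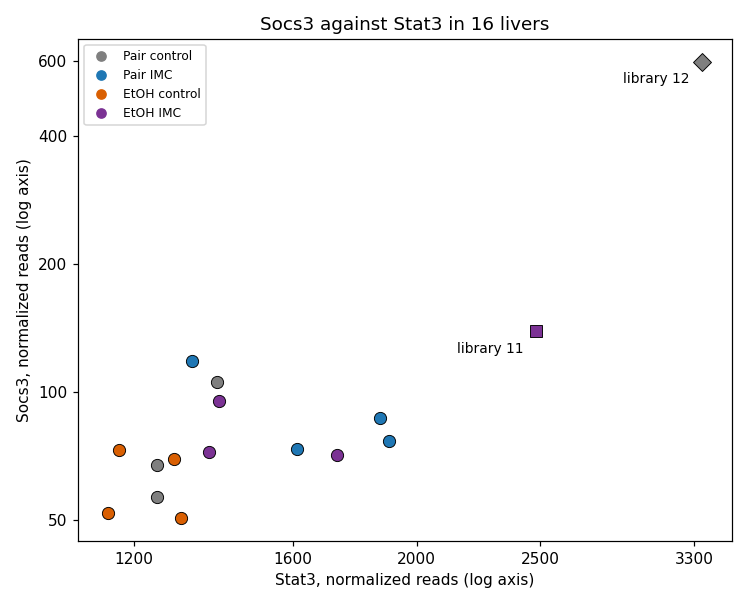
Socs3 against Stat3 in normalized reads (log axes) in the 16 livers, coloured by group. Library 12 lies alone at 3345 and 598, library 11 follows at 2478 and 139, and the other 14 livers lie at or below 1903 and 119.

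The genes whose pattern over the 16 libraries was nearest to Lepr were Rnf11 (Pearson r of log2 values 0.906), Nfrkb (0.906) and Prpf19 (0.897). Their levels changed far less than that of Lepr: Rnf11 went from 1109.7 ± 43.4 in Pair control to 1547 ± 80.5 in Pair IMC. Il22ra1 was nearest to Mapkapk2 (0.920), Psmd11 (0.896) and Ric8b (0.886). Il22ra1 ranked 107th of all genes by likeness to Lepr. Both were singled out for their rise in Pair IMC, and the 16 libraries include that comparison, so nothing is read from this rank. Stat3 was nearest to Cebpb (0.953), Egfr (0.892) and Slc37a1 (0.858), and without library 12 these were 0.920, 0.937 and 0.701. Socs3 was nearest to Cxcl1 (0.873), Slc37a1 (0.846) and Myd88 (0.836), which without library 12 were 0.460, 0.581 and 0.251.

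Markers of other liver cells were set beside the IMC result in ethanol-fed mice. All markers of the 7 lists had reads. Of all genes tested, 21.5% were called in this comparison, and the marker counts below stand beside that share. The summed stellate cell markers were 4939 to 5830 normalized reads in EtOH control and 3201 to 4156 in EtOH IMC, and 4 of 9 fell. The summed hepatocyte markers (1048442 to 1142836 and 965262 to 1240602), Kupffer cell and macrophage markers (4652 to 6645 and 3415 to 5508) and bile duct markers (763 to 1041 and 708 to 859) overlapped between these groups. Of those 3 lists, 1 hepatocyte marker rose and no other gene was called. Sinusoidal endothelial markers ran from 4381 to 4962 and from 3774 to 5125, with 1 of 9 up, and neutrophil and lymphocyte markers summed to at most 61.3 and 45.1. The part of these lists in the Lepr and Il22ra1 results was not tested.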

How the data were processed

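Liver RNA from 16 mice was sequenced with a directional TruSeq kit. Reads were trimmed with Trim Galore, checked with FastQC, aligned to mm10 with STAR and normalized with edgeR by the authors, per the methods and the submitters' processing notes. The counting tool and its strand setting are not given in the sources used here, and the text describes single-end reads where the labels describe paired ends. The deposited signal values are read counts that were divided, library by library, by a size factor. Once divided by the value of 1 read, 100% of values lay within 0.01 of a whole number in each library. In library 15 that value was 1.01, so that whole reads are least securely told from normalized values there. The table held 27212 rows for 24082 Ensembl IDs, and 430 IDs with several symbols had identical values in each row and were used once.

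Whole reads were divided by median-ratio size factors over all 16 libraries, since the deposited scale was set within each diet. The 12543 genes at 10 or more in at least 4 libraries were fitted with limma 3.58.1 in R 4.3.3 on log2(value + 1), so folds are on that scale and understate low genes. The fit had a mean per group, all 16 libraries sharing the spread, empirical Bayes moderation and a mean trend. Tests were two-sided, with Benjamini-Hochberg adjustment over all genes and a threshold of 0.05. Each library came from 1 mouse, so a p-value measures the spread between mice. The paper reports diet intake by cage, and the sample labels used here name no cage. Mice that shared a cage could therefore not be taken into account. Reads carry no molecular identifiers, so the limit of 3 reads covers counting error only. The fit was tested on simulated data.

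The members and gene lists were chosen with earlier results of these data known. Lepr and Il22ra1 were singled out on IMC in pair-fed mice, so that contrast is a description for all 8 members, and contrasts that share its samples are a description for these 2. The genes named are the 8 members in each contrast, of each list the 2 largest rises and 2 largest falls among called genes for IMC in ethanol-fed mice, IMC averaged, ethanol in control mice and ethanol averaged, and the 3 genes nearest in pattern to Lepr, Il22ra1, Stat3 and Socs3. A single further gene covered by this naming is not reported here. Values of genes shown for library 12 were chosen after they were seen. Alternatives were the deposited scale, quantile normalization, a pseudocount of 5, no filter (17873 genes), only the libraries of a comparison, edgeR 4.0.16 with TMM, DESeq2 1.42.0, and each library left out. Count tests without library 15 were chosen after seeing the data. Genes were placed with GENCODE vM21 on GRCm38 and promoters with RefSeq on GRCm38.p6. Plots used Python 3.11.15 and matplotlib 3.10.9.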

Additional observations from a re-analysis of the deposited data

Results flagged for a closer look

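In each of the 32 combinations of a member and a group of 4 mice, the highest or lowest mouse was compared with the rest by Dixon's ratio (the gap to the nearest mouse over the whole range) at the 95% level. Chance flags about 1 in 20 groups. Of these, 3 passed, all in Pair control. Stat3 in library 12 had 3345 normalized reads, where the nearest other Pair control mouse had 1395 (ratio 0.931). Socs3 in the same library had 598, where the nearest other had 105 (ratio 0.910). Il10rb in library 16 had 209, where the nearest other had 136 (ratio 0.924).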

How the results depend on the processing

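Of 172 alternative counts of called members, 157 stayed within 1.5 times of the main count. Among the 172 are the contrasts that chose Lepr and Il22ra1 or contain that choice, so nothing is read from this total. For IMC in ethanol-fed mice (2 called) the count was 1 with only the libraries of the comparison, and between 0 and 3 when single libraries were left out. It was 0 without EtOH control library 7, 1 without library 3, 5, 11 or 13, and 3 without library 12. For ethanol in control mice (0 called) it was 1 by edgeR, by DESeq2 and by DESeq2 without library 15. For ethanol in IMC-treated mice (1 called) it was 2 on the deposited scale and with only the libraries of the comparison, and 1 to 3 when single libraries were left out. For ethanol averaged over IMC (1 called) it was 3 on the deposited scale and 1 to 2 when single libraries were left out. Signs of small differences turned as follows, and the cause was not tested. On the deposited scale, ethanol in control mice gave 0.181 for Il10rb and 0.0549 for Jak2, and Jak2 gave 0.0113 in IMC-treated mice and 0.0331 on average. Without library 15, Il6ra gave 0.0413 by edgeR and 0.0361 by DESeq2 for IMC in ethanol-fed mice. Socs3 for IMC averaged over diets gave -0.31 by edgeR and -0.30 by DESeq2, and -0.25 by each without library 15. When single libraries were left out, 11 log2 ranges crossed 0. They were -0.144 to 0.00142 for Il10rb, -0.157 to 0.0443 for Il6ra and -0.0340 to 0.147 for Jak2 with IMC in ethanol-fed mice. They were -0.155 to 0.408 for Socs3 with IMC averaged over diets, and -0.0731 to 0.154 for Il10rb and -0.0671 to 0.376 for Il22ra1 with ethanol in control mice. With IMC in pair-fed mice they were -0.0201 to 0.250 for Il6st, -0.114 to 0.359 for Stat3 and -0.888 to 0.238 for Socs3. With ethanol in IMC-treated mice they were -0.156 to 0.127 for Stat3 and -0.146 to 0.202 for Socs3. No paired analysis was possible because the groups share no library number. The depth left Il22, Il20 and Il24 below detection.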
